A study of Mus musculus with 4 samples.

Results

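C-type lectin receptor genes were followed in mononuclear cells taken from the lamina propria, the tissue beneath the epithelium of the gut. The set was chosen by symbol. It holds the genes whose symbol is Clec followed by a digit, without Clec9a, Clec10a and Clec14a, together with Mgl2 and 6 genes of the Cd209 family, Cd209b to Cd209g. The rule found 37 genes among 48526 gene identifiers, and 18 of them had a mean of at least 4 over the 4 samples and were tested. Samples of the DKO group came from mice given CD4 T cells that were deficient in both Hobit and Blimp, transcription factors known for keeping lymphocytes resident in tissues, and their labels describe mild colitis. Samples of the WT group came from mice given wild-type CD4 T cells, and their labels describe pronounced colitis. Each group had 2 samples, taken here as biological replicates. All 4 samples share the transfer of CD4 cells, and the labels give a genotype for these cells only. The sources used here do not give age, sex or strain of the recipient mice, or whether cells of several mice were pooled. The genotype of the transferred cells and the severity of colitis cannot be told apart in this design.

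C-type lectin receptors are surface proteins of innate immune cells that bind sugars, lipids and other ligands of microbes and of damaged cells. Activating receptors such as Dectin-1 and Mincle carry or recruit a tyrosine-based activation motif, which is phosphorylated by Src family kinases and read by the kinase Syk and the adaptor Card9. Inhibitory receptors such as DCIR and MICL carry a tyrosine-based inhibition motif that recruits the phosphatases SHP-1 and SHP-2. In the gut these receptors sense fungi and bacteria of the lumen. Most of them lie in a pair of gene clusters on mouse chromosome 6, named here after Dectin-2 and Dectin-1.

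The name of the family covers more than receptors confined to myeloid cells. Clec3b and Clec11a encode secreted proteins, Clec1a is known from endothelium as well as myeloid cells, Clec16a encodes an intracellular protein with no role as a sugar receptor, and the Clec2 genes encode ligands of natural killer cell receptors. These are described apart from the other receptors below. All values are regularized log2 expression (rlog, the log2 scale of DESeq2), so that a difference of 1 is a 2-fold change. Rlog draws differences towards 0, most where reads are few. Sequencing depth is unknown, since no counts are at hand.

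The upstream sequences of 5 of the genes that differed between the groups are shown as examples. Clec4e, Clec7a, Clec12a and Clec5a were lower in DKO, and Mgl2 was higher. Each sequence is the stretch of 250 bases before the first listed RefSeq start of the gene on GRCm38.p6, read 5′ to 3′ on the strand of the gene. Clec7a has 2 listed starts. The windows are chr6:123289872-123290121 (minus strand) for Clec4e, chr6:129472780-129473029 (minus) for Clec7a, chr6:129349994-129350243 (plus) for Clec12a, chr6:40585806-40586055 (minus) for Clec5a and chr11:70130107-70130356 (plus) for Mgl2. Capitals mark matches to 4 simplified motifs, named after myeloid and inflammatory transcription factors and searched on both strands. The letters were GAGGAA for PU.1, TTGCNNAA for C/EBP, TGANTCA for AP-1 and GGGNNTTCC for NF-kappaB, where N is any base. All 5 sequences shown hold a PU.1 match, which not every gene that differed does.
Clec4e: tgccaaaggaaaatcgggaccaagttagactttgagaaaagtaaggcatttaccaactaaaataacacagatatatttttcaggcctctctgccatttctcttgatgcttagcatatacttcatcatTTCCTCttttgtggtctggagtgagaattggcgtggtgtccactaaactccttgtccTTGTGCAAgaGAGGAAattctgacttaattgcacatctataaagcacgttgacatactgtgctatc
Clec7a: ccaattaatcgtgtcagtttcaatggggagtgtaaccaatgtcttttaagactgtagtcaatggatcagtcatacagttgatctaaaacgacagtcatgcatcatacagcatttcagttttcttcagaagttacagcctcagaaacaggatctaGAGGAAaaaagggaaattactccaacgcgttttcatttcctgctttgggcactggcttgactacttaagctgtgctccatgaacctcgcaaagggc
Clec12a: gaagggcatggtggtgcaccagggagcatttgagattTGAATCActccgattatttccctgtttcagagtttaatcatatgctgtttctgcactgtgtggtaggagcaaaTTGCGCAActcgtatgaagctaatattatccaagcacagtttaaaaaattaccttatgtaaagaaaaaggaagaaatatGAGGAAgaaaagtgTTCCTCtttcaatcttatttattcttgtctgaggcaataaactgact
Clec5a: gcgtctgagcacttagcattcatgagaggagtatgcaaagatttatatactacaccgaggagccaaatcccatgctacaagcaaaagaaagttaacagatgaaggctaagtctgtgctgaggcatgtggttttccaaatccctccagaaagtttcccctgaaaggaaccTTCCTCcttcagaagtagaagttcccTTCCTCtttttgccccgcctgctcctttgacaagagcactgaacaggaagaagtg
Mgl2: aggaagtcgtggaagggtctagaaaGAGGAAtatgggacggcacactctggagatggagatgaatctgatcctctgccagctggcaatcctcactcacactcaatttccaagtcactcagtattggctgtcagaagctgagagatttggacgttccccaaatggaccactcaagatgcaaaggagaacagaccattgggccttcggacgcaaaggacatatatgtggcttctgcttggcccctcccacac

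RefSeq upstream sequences matched 15 of the 18 tested genes. The PU.1 letters were found in 9 of these 15, and in 23.1% of 27025 upstream windows of the same length over all genes. Of the 8 matched genes that were lower in DKO, 6 held them, namely Clec4d, Clec4e, Clec7a, Clec5a, Clec12a and Clec4a1. Clec4a3 and Clec4a2 did not, and Clec4a2, the largest fall of the set, matched none of the 4 motifs. Mgl2 and Clec11a, which were higher in DKO, held the PU.1 letters too, as did Clec16a, which was not called. The C/EBP letters were in 4 of 15 windows and in 9.55% of all windows. In Clec4e they stood at positions -66 to -59 from the start, next to a PU.1 match at -56 to -51. AP-1 letters were in 2 of 15 (6.87% of all windows) and NF-kappaB letters in 1 of 15 (4.88%), and no matches overlapped. A match describes these letters only, and both AP-1 matches, in Clec2h and Clec12a, read TGAATCA. The simplified letters are not full binding sites, so they can miss sites of a factor or match elsewhere.

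Activating receptors, inhibitory receptors and DCIR relatives of myeloid cells were mostly lower in DKO, while Mgl2, Clec3b, Clec11a and Clec1a were higher. Of the 18 tested genes, 9 fell and 4 rose at an adjusted p under 0.05 in limma with Benjamini-Hochberg adjustment over all 13528 tested genes. Over all tested genes 4.85% fell and 9.92% rose, 14.8% in either direction. Among the 4 rises, Clec1a reached the minimum mean of 4 only through its DKO values, so it had to differ to be tested. All 9 that fell were activating receptors, inhibitory receptors or their DCIR relatives, roles that were assigned with earlier results of these data known. The median difference (DKO minus WT) was -0.35 over the 18 genes and -0.022 over all tested genes. It was -0.51 over the 6 tested activating receptors and -0.62 over the 4 tested inhibitory and DCIR genes. The values of the groups did not overlap for 10 of the 18 genes with DKO below WT, against 30.3% of all tested genes. They did not overlap for 5 of the 18 with DKO above WT, which is near the 25.0% of all tested genes. The calls depended on the minimum mean of 4: with no filter on low values 0 of these genes were called, and the smallest adjusted p among the 18 was 0.11, for Clec4e. The count of 4 rises was 1 without WT replicate 1 and 2 without DKO replicate 1.

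**Figure D1:**
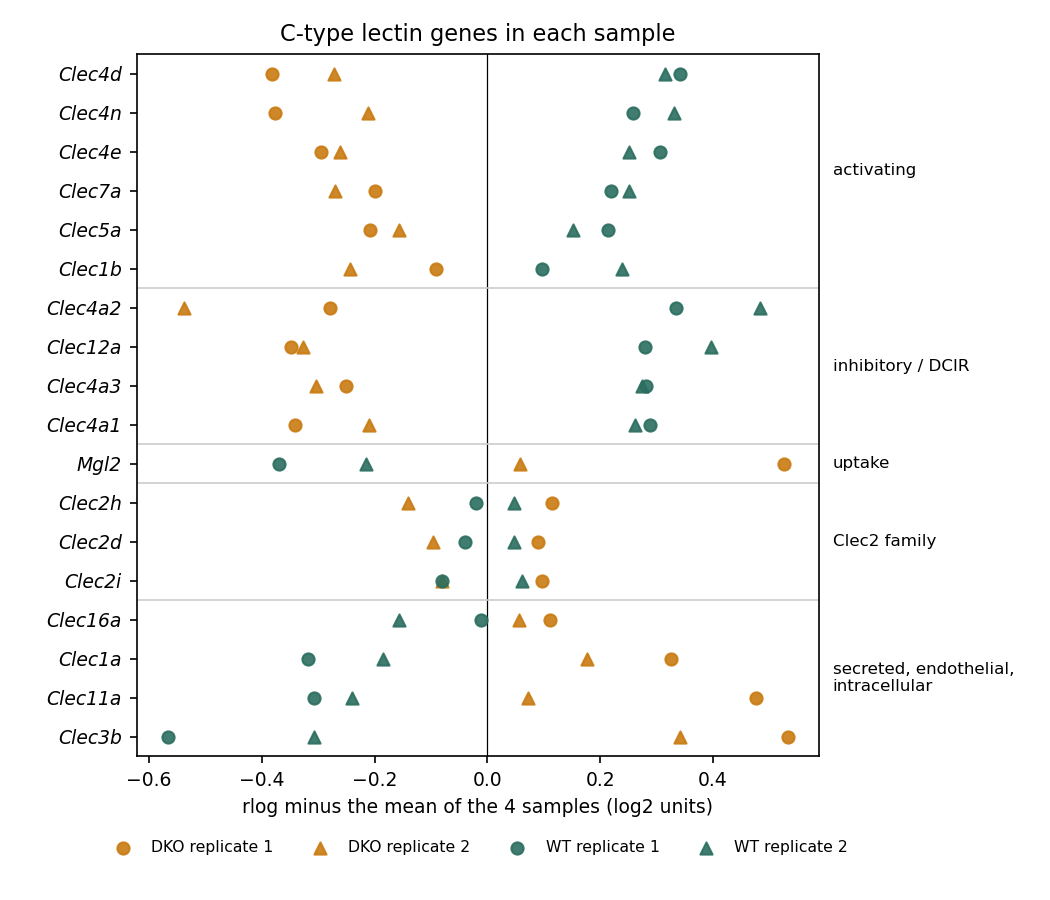
Value of each tested C-type lectin gene in each of the 4 samples, as rlog minus the mean of the 4 samples (x axis, log2 units), with genes grouped by role (y axis). In the activating and the inhibitory or DCIR groups every DKO sample lies left of both WT samples, while the Clec2 genes overlap. Over all tested genes 30.3% have both DKO samples below both WT samples.

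Clec7a and Clec4e had the highest levels in the set. Levels of different genes were compared per kb of exon, as rlog minus log2 of the length of all annotated exons in kb. On this scale Clec7a stood at 12.22 in DKO and 12.69 in WT, and Clec4e at 11.17 in DKO and 11.72 in WT. Clec4d and Clec4n followed, with means over the 4 samples of 10.55 and 10.44. Clec1a and Clec1b were lowest, at 1.64 and 2.14. Neighbours in this order were often close, such as Clec4a3 and Clec5a at 7.87 and 7.84, nearer to each other than DKO and WT were in either gene.

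**Figure D2:**
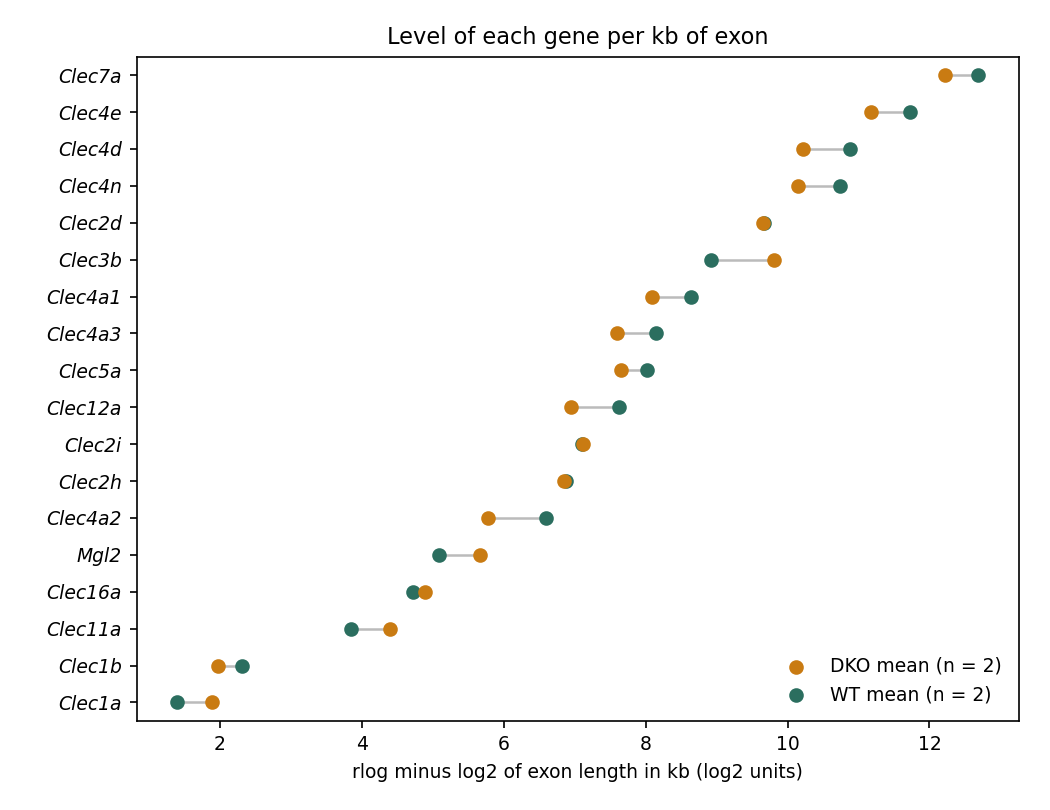
Group means (n = 2 each) of the 18 tested genes per kb of exon (x axis, rlog minus log2 of exon length in kb), ordered by their mean (y axis). Clec7a and Clec4e stand at the top in DKO and in WT, and Clec3b is the gene whose DKO mean lies farthest above its WT mean.

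Of 8 activating receptors, 6 were tested, 5 fell in DKO and Clec1b did not pass. Clec7a, which encodes Dectin-1, the receptor for fungal beta-glucan, had rlog values of 13.65 and 13.58 in the DKO samples and 14.07 and 14.10 in the WT samples (ENSMUSG00000079293, GRCm38 chromosome 6, 129461591 to 129472779). Both DKO samples lay below both WT samples, and the difference was -0.47 (SE 0.102, adjusted p = 0.00895), or 27.8% lower expression. The call was lost with quantile normalization (-0.29, adjusted p = 0.0643), without WT replicate 1 (adjusted p = 0.065) and without WT replicate 2 (adjusted p = 0.0992).

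Clec4e encodes Mincle, which binds mycobacterial cord factor and the nuclear protein SAP130 of dead cells. It had values of 13.46 and 13.50 in DKO and 14.06 and 14.01 in WT (ENSMUSG00000030142, chromosome 6, 123281789 to 123289870). The gap between the groups exceeded the spread within each, with SDs of 0.0236 in DKO and 0.0385 in WT (n = 2 each), and the difference was -0.56 (SE 0.0998, adjusted p = 0.00279). Clec4d encodes MCL, which binds the same glycolipid and helps to bring Mincle to the surface. Its values were 10.85 and 10.96 in DKO and 11.57 and 11.54 in WT, a difference of -0.65 (SE 0.0803, adjusted p = 0.000241). This was the largest fall among the activating receptors.

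Clec4n, which encodes Dectin-2, a receptor for alpha-mannan of fungi, stood at 10.57 and 10.74 in DKO and at 11.21 and 11.28 in WT. Its DKO samples were again both lower, by 0.59 on average (SE 0.0852, adjusted p = 0.000728). Clec5a encodes MDL-1, which signals through the adaptor DAP12 and was the smallest of the called falls. It had 9.575 and 9.626 in DKO and 9.9975 and 9.935 in WT (difference -0.37, SE 0.0795, adjusted p = 0.00905), and did not pass without WT replicate 1 (adjusted p = 0.0853).

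Clec1b, the platelet receptor CLEC-2, was at 4.40 and 4.25 in DKO and at 4.59 and 4.73 in WT. Its difference of -0.33 (SE 0.117) did not pass (adjusted p = 0.0866), but passed with quantile normalization (adjusted p = 0.0264) and without DKO replicate 1 (adjusted p = 0.0407). Its annotated span overlaps that of Clec9a on the same strand. Whether their exons overlap, and how reads in the shared part were counted, was not examined. Of 8 platelet markers 3 were tested, with a median of -0.097 and a summed level of 7.265 to 7.539 in DKO and 7.697 to 7.865 in WT. Pf4 fell (-0.83, adjusted p = 0.00786; -0.53 without DKO replicate 1), whereas Itga2b was at 0.33 (adjusted p = 0.0772) and Gp1bb at -0.097 (adjusted p = 0.642). Gp1ba, Gp9 and Treml1 were at or under 0 in all 4 samples. The part of platelets in the value of Clec1b was not tested. Its ligand Pdpn (podoplanin), a protein of stromal cells, rose in DKO, with 9.10 and 9.24 against 8.63 and 8.70 in WT (0.51, SE 0.0899, adjusted p = 0.00261).

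Of 6 inhibitory and DCIR genes, 4 were tested and all 4 fell. The untested Clec4a4 and Clec12b had means of 3.28 and 1.105 in DKO and 3.33 and 1.051 in WT. Clec4a2 encodes DCIR1, which bears an inhibitory motif in its cytoplasmic tail, and showed the largest fall of the set. Its values were 7.46 and 7.20 in DKO and 8.07 and 8.22 in WT, a difference of -0.82 (SE 0.116, adjusted p = 0.00065), or 43.3% lower. Clec12a encodes MICL, an inhibitory receptor of granulocytes and monocytes that binds uric acid crystals. It had 9.41 and 9.43 in DKO and 10.04 and 10.15 in WT (-0.68, SE 0.0818, adjusted p = 0.000224), with a spread within DKO of 0.0147 (SD, n = 2).

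Clec4a3 (DCIR3) and Clec4a1 (DCIR4) are relatives of DCIR1 in the same cluster. Clec4a3 had 8.03 and 7.97 in DKO and 8.56 and 8.55 in WT (-0.56, SE 0.0913, adjusted p = 0.00162). Clec4a1 had 8.67 and 8.80 in DKO and 9.30 and 9.27 in WT (-0.55, SE 0.0876, adjusted p = 0.00133). In all 4 of these genes the DKO samples lay below the WT samples, as they did in 30.3% of all tested genes. The Clec4a genes are similar in sequence, and the sources used here do not say how reads that match several of them were counted.

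**Figure D3:**
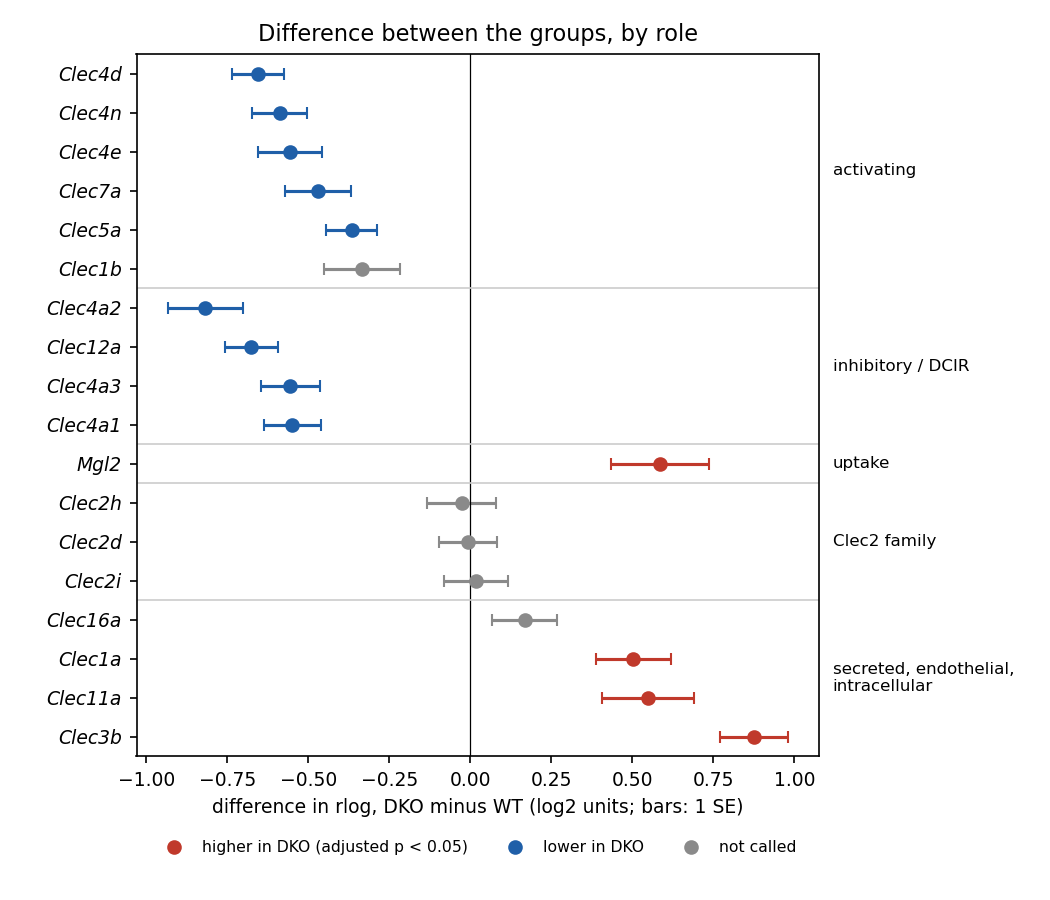
Difference in rlog (DKO minus WT, x axis, log2 units) of the 18 tested genes by role (y axis), with bars of 1 SE from limma. The 9 blue genes fell and the 4 red genes rose at an adjusted p under 0.05, and the 5 grey genes did not pass. Clec1a, a red gene, reached the limit for testing only through its DKO values.

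Neutrophil markers and most macrophage markers moved in the same direction as these receptors. All 12 neutrophil markers of a fixed list fell in DKO, with a median difference of -1.39. Their summed level (log2 of the sum of linear values) was 14.31 to 14.78 in DKO and 15.88 to 15.96 in WT. The marker lists were drawn up with earlier results of these data known, so counts over them are descriptions and no tests. Of 11 macrophage markers, Mrc1 among them, 8 fell, with a median of -0.41 and a summed level of 14.21 to 14.42 in DKO and 14.75 to 14.78 in WT. Of 8 monocyte markers 3 fell and 2 rose (median -0.33, summed level 14.36 to 14.50 in DKO and 14.52 to 14.58 in WT). No marker of these 3 lists was at 0. Other lists of blood cells were mixed. Among 7 markers of type 1 conventional dendritic cells 0 were called (median 0.23). Plasmacytoid dendritic cells had 3 falls and 1 rise in 6 markers, and eosinophils 2 falls in 3 tested. Mast cells had 4 rises and 1 fall in 7 tested markers. T cells had 0 calls in 8 markers (median -0.14), and natural killer cells 2 rises in 6. The summed level of the 14 activating, inhibitory and DCIR genes was 14.86 to 14.87 in DKO and 15.39 in both WT samples. This sum rests mostly on Clec7a and Clec4e. Summed levels were not adjusted for gene length, and the highest genes of a list weigh most in them. The part of these cell types in the lower receptor values was not tested, and fewer cells of a type and less RNA per cell cannot be told apart in such bulk samples.

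Mgl2 (CD301b), a receptor that takes up galactose-bearing glycans and marks a subset of dendritic cells and macrophages, went the other way. It had 6.97 and 6.50 in DKO and 6.07 and 6.23 in WT, a difference of 0.58 (SE 0.151, adjusted p = 0.0234). The DKO samples differed by more from each other than the WT samples did, and the call was lost without DKO replicate 1 (0.35, adjusted p = 0.11), without WT replicate 1 (0.51, adjusted p = 0.0808) and with quantile normalization (adjusted p = 0.0623). Clec10a, its neighbour in sequence and position, was at 6.82 and 6.42 in DKO and 6.50 and 6.59 in WT (0.072, adjusted p = 0.806). Of 7 markers of type 2 conventional dendritic cells, Clec10a among them, 1 rose and 1 fell. Their median of 0.072 was the value of Clec10a itself. Their summed level was 13.33 to 13.41 in DKO and 13.51 to 13.53 in WT. The 6 Cd209 genes of the set were all below the limit for testing. Cd209b was listed at 0 in every sample, and Cd209d, the highest of them, had a mean of 2.02.

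Among these remaining genes of the family, Clec3b had the largest rise of the set. It encodes tetranectin, a secreted protein of mesenchymal cells that binds plasminogen. Its values were 9.89 and 9.70 in DKO and 8.79 and 9.05 in WT (ENSMUSG00000025784, chromosome 9, 123150946 to 123157432), a difference of 0.87 (SE 0.106, adjusted p = 0.000221) and a fold of 1.83. Both DKO samples exceeded both WT samples by more than the replicates differed.

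Clec11a, which encodes a secreted growth factor of blood and bone progenitors, had 6.17 and 5.76 in DKO and 5.38 and 5.45 in WT. The difference of 0.55 (SE 0.141, adjusted p = 0.0224) rested more on DKO replicate 1, without which it was 0.35 (adjusted p = 0.109), and did not pass without WT replicate 1 (adjusted p = 0.0718) or with quantile normalization (0.39, adjusted p = 0.095). Clec1a, a receptor for fungal melanin, had 4.34 and 4.19 in DKO and 3.70 and 3.83 in WT (0.50, SE 0.115, adjusted p = 0.0124), and did not pass without WT replicate 1 (adjusted p = 0.0987). With a mean of 4.02 it lay just inside the limit and reached it only through its DKO values, so that it had to differ to be tested with so low a WT mean. The next gene outside, Clec2e, had a mean of 3.52. Clec16a, a regulator of endosomes and mitophagy, was at 7.99 and 7.93 in DKO and 7.86 and 7.72 in WT (0.17, adjusted p = 0.334).

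Stromal markers rose beside these genes. All 8 fibroblast markers (median 0.88, summed level 15.45 to 15.72 in DKO and 14.70 to 14.75 in WT) and all 8 endothelial markers (median 1.24, summed level 12.28 to 12.37 in DKO and 11.30 to 11.49 in WT) were called higher, and none of them was at 0. The fibroblast markers include Pdpn, given above as the ligand of Clec1b. Their part in the values of Clec3b, Clec11a and Clec1a was not tested.

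The Clec2 genes showed no call. Clec2d (Clr-b), the ligand of the inhibitory receptor NKR-P1B of natural killer cells, had 10.03 and 9.84 in DKO and 9.90 and 9.98 in WT (-0.0077, SE 0.0887, adjusted p = 0.974). Clec2h (Clr-f), which is known from gut epithelium, had 8.42 and 8.16 in DKO and 8.28 and 8.35 in WT (-0.026, SE 0.107, adjusted p = 0.918). Clec2i (Clr-g) had 8.85 and 8.67 in DKO and 8.67 and 8.81 in WT (0.018, SE 0.0982, adjusted p = 0.941). In these genes the DKO replicates lay on either side of the WT values or touched them, and the sign of the difference changed when a sample was left out. Receptor genes of the same system did not pass either, with Klrb1b (NKR-P1B) at -0.024 (adjusted p = 0.913) and Klrb1f at 0.065 (adjusted p = 0.758). All 8 epithelial markers failed to pass, with a median of 0.0013 and a summed level of 14.04 to 14.12 in DKO and 14.01 to 14.16 in WT.

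Position on chromosome 6 was not part of the rule, but both ends of each stretch below were set at genes of the family. Between Clec4a1 and Clec4e (122921848 to 123289870, a span of 368 kb) the table listed 13 genes, of which 9 were C-type lectins of the set. The 6 that were tested are falls already given above, by 0.55 to 0.82. They were the only tested genes there, so the stretch adds no separate observation. Their neighbours Clec4a4, Clec4b1 and Clec4b2 had means of 3.30, 1.94 and 1.81 and were below the limit. In the stretch from Clec2d to Clec7a (129180615 to 129472779, 292.2 kb) the picture was mixed. Of 5 tested genes of the set there Clec12a and Clec7a fell, Clec1a, which lies beside Clec7a, rose, and Clec2d and Clec1b did not pass. Clec1a reached the limit for testing only through its DKO values, so its contrast with Clec7a adds no separate observation. The other 3 tested genes of that stretch did not pass, namely Cd69 (-0.22, adjusted p = 0.293), Clec9a (0.23, adjusted p = 0.322) and 2310001H17Rik (-0.31, adjusted p = 0.0986).

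**Figure D4:**
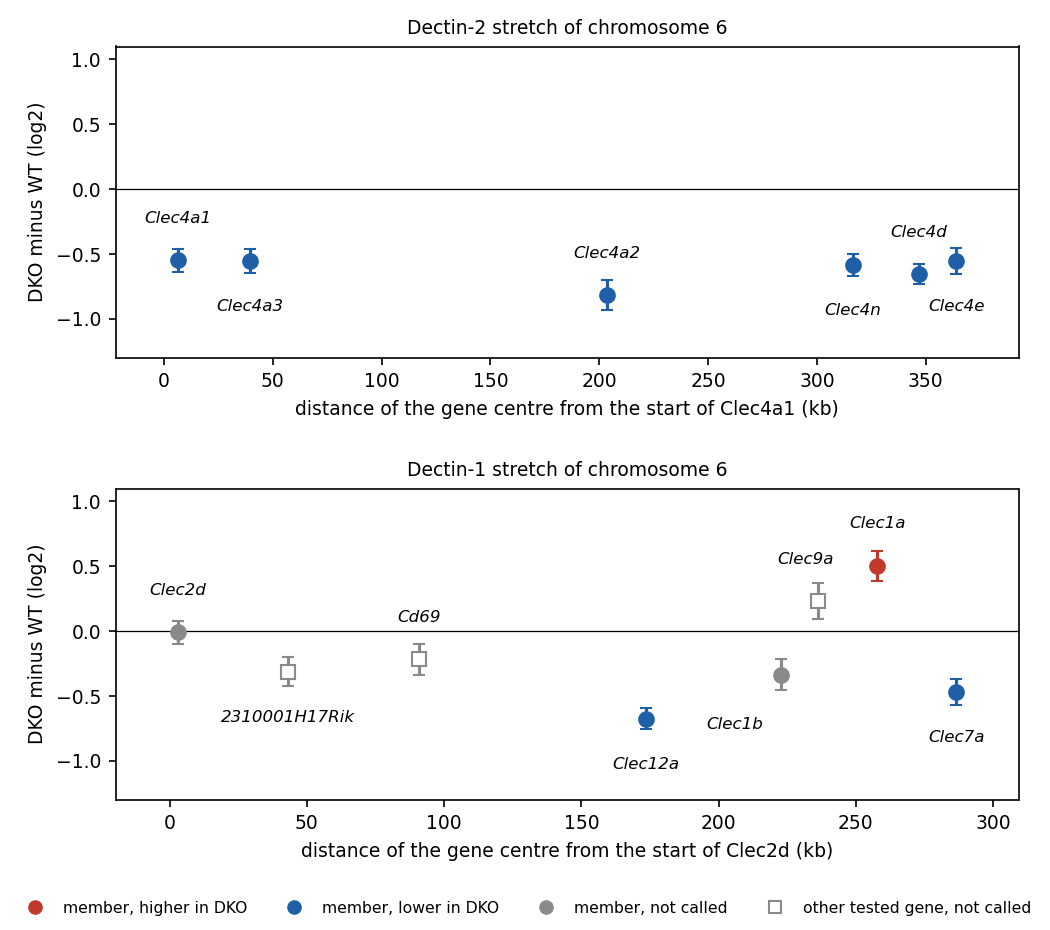
Difference in rlog (DKO minus WT, y axis, log2 units, bars of 1 SE) of every tested gene in the pair of chromosome 6 stretches, against the distance of its centre from the start of the first gene (x axis, kb). All 6 genes of the Dectin-2 stretch lie between -0.82 and -0.55, whereas Clec1a and Clec7a, neighbours in the Dectin-1 stretch, lie at 0.50 and -0.47. Clec1a reached the limit for testing only through its DKO values.

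Genes downstream of the receptors were taken from a fixed list of 20 adaptors, kinases and phosphatases. In it 6 fell and 0 rose, 30.0% of the list against 14.8% of all tested genes, with a median of -0.18. This list was drawn up with earlier results of these data known, so its share of calls is no test. Fcer1g, the gamma chain through which Mincle, MCL and Dectin-2 signal, had 11.43 and 11.66 in DKO and 12.19 and 12.17 in WT (-0.64, SE 0.0936, adjusted p = 0.000787). Tyrobp, which encodes the Clec5a partner DAP12, had 12.08 and 12.01 in DKO and 12.42 and 12.45 in WT (-0.39, SE 0.0835, adjusted p = 0.00828). Both adaptors were thus lower beside the receptors they serve, although Tyrobp did not pass without WT replicate 1 (adjusted p = 0.0517) or 2 (adjusted p = 0.0866).

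Card9, the adaptor that links Syk to NF-kappaB, had 7.30 and 7.16 in DKO and 7.78 and 7.75 in WT (-0.54, SE 0.105, adjusted p = 0.00443). The Src family kinases Fgr (-0.44, adjusted p = 0.003) and Lyn (-0.34, adjusted p = 0.0151) fell, while Src itself did not pass (-0.11, adjusted p = 0.576). Lyn did not pass without WT replicate 1 (adjusted p = 0.172) or with quantile normalization (adjusted p = 0.0502). Syk, the kinase shared by the activating receptors, had 11.99 and 12.01 in DKO and 12.42 and 12.20 in WT. Its fall of -0.31 (SE 0.0931, adjusted p = 0.0487) stood close to the threshold and did not pass without WT replicate 1 (-0.20, adjusted p = 0.426), with quantile normalization (adjusted p = 0.157), without the variance trend (adjusted p = 0.0843) or at a minimum mean of 6 (adjusted p = 0.0518). The partners of Card9 did not pass, with Bcl10 at -0.20 (adjusted p = 0.167) and Malt1 at -0.27 (adjusted p = 0.0823). Nor did the phosphatase genes of the inhibitory arm, Ptpn6 (SHP-1, -0.27, adjusted p = 0.0503) and Ptpn11 (SHP-2, 0.21, adjusted p = 0.124).

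**Figure D5:**
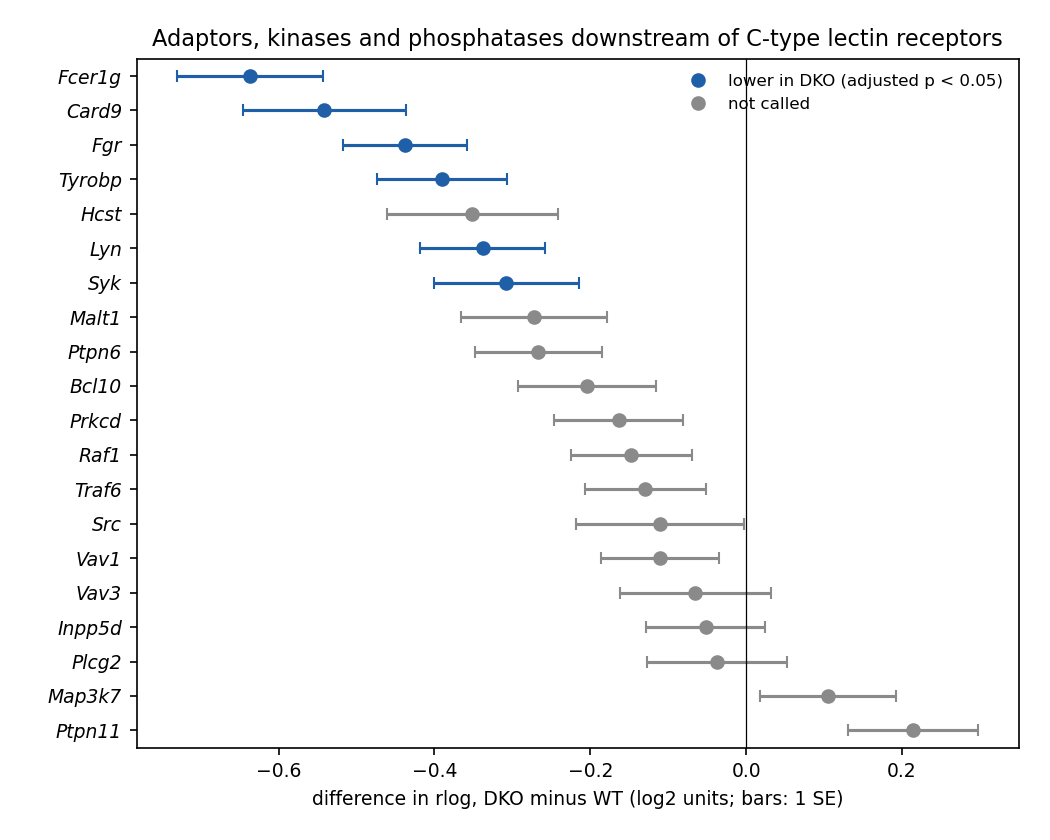
Difference in rlog (DKO minus WT, x axis, log2 units, bars of 1 SE) of the 20 genes of the signalling list (y axis). Fcer1g lies farthest to the left at -0.64, 6 genes in blue fell, and Map3k7 and Ptpn11 are the genes on the right of 0.

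Of 13 genes of a fixed list known to be induced through activating C-type lectin receptors, 5 fell and 1 rose (46.2% called, against 14.8% of all tested genes). Those that fell were the chemokine Cxcl2 (-0.63, adjusted p = 0.00406), the prostaglandin synthase Ptgs2 (-0.62, adjusted p = 0.00602), the inflammasome sensor Nlrp3 (-0.38, adjusted p = 0.0117), Il1b (-0.53, adjusted p = 0.034) and Il10 (-0.42, adjusted p = 0.0491). None of these 5 passed without WT replicate 2, with adjusted p from 0.0646 for Cxcl2 to 0.453 for Il10. Il10 was then at -0.21, and it also missed the threshold without DKO replicate 1 (adjusted p = 0.0734), without the variance trend (adjusted p = 0.0938), with the robust variance estimate (adjusted p = 0.0999) and with quantile normalization (adjusted p = 0.115). Il12b, which encodes a subunit shared by IL-12 and IL-23, rose, with 10.63 and 10.56 in DKO and 9.68 and 10.15 in WT (0.68, SE 0.127, adjusted p = 0.00354). Without WT replicate 1 its difference was 0.45 (adjusted p = 0.0152). Tnf (-0.23, adjusted p = 0.116), Il6 (0.027, adjusted p = 0.918) and Il23a (-0.45, adjusted p = 0.0978) did not pass. Other pathways induce these genes too. Earlier results of these data were known when the list was drawn up, so its share of calls is no test.

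C-type lectin genes outside the rule were set beside the family. Of 20 listed, with earlier results of these data known, 19 were tested, 8 rose and 2 fell. The share called, 52.6% against 14.8% of all tested genes, is therefore no test. The 2 that fell, Olr1 (LOX-1, a receptor for oxidized lipoprotein; -0.56, adjusted p = 0.0026) and Mrc1 (the macrophage mannose receptor; -0.37, adjusted p = 0.0397), are known from myeloid cells. Olr1 had 8.27 and 8.47 in DKO and 8.88 and 8.97 in WT. Mrc1 did not pass without DKO replicate 1 (-0.22, adjusted p = 0.188), without WT replicate 1 (adjusted p = 0.15) or 2 (adjusted p = 0.0893), without the variance trend (adjusted p = 0.0628) or with quantile normalization (adjusted p = 0.0501).

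The 8 that rose are known, among other cells, from endothelium or stroma. They were Selp (P-selectin, 1.44), Sele (E-selectin, 1.30), Pla2r1 (1.27), Thbd (thrombomodulin, 1.16), Colec12 (0.94), Clec14a (0.91), Mrc2 (0.83) and Cd248 (0.58), with adjusted p from 3.24e-05 for Thbd to 0.0023 for Cd248. Sele, for example, had 7.30 and 7.51 in DKO and 6.09 and 6.13 in WT. The summed levels of the endothelial and fibroblast markers given above moved with them, and their part was not tested.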

How the data were processed

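RNA-seq of mononuclear cells from the lamina propria used a stranded mRNA protocol, per the labels' protocols, for 2 DKO and 2 WT samples. Groups follow the treatment in the labels, and replicate numbers follow the order of entries and pair no samples. Separate animals are not named, so p-values speak only for these samples. The variance behind each p-value was moderated towards a trend over all tested genes, with 8.905 prior and 2 residual degrees of freedom. The log2 values are those deposited by the authors as rlog, per the name of the deposited table. The submitters' processing notes name the aligners STAR 2.5.4a and BWA 0.7.14-r1136, the Subread 1.5.2 package and featureCounts, DESeq2, the read tools cutadapt 1.9.1 and bcl2fastq 2.17.1.14, and the build GRCm38. The order of these steps and the strand setting of the counting were not stated. The table also holds 2 columns of no labelled sample, which stayed out of every step and could have influenced the authors' rlog shrinkage. No counts or depths were used.

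Of 48526 identifiers, 48058 matched a symbol and position in GENCODE M21 (GRCm38). The 13528 genes whose mean over the 4 samples reached 4 were tested with limma 3.58.1 in R 4.3.3, with group as the only term, empirical Bayes moderation with a variance trend, two-sided tests and Benjamini-Hochberg adjustment at 0.05. The fit was tested on simulated data with 200 changed genes. Alternatives changed the filter, the moderation and the scaling or left out a sample. Where a sample was left out, the remaining one was taken to have the spread of the other group. The genes, 20 marker and pathway lists and roles were chosen with earlier results of these data known. Every tested gene of the family is named, with values in every sample for called ones. From the lists, called genes are named by p, and Syk, Clec14a, Cd248, Olr1, Mrc1, the induced genes and those that did not pass were chosen after their values were seen. From the signalling list 1 gene is not reported here and was left out of its counts. Upstream sequences are from RefSeq (GRCm38.p6). Tables and figures were made with pandas 2.3.3, matplotlib 3.10.9 and Python 3.11.15.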

Additional observations from a re-analysis of the deposited data

How the results depend on the processing

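The counts of 9 genes lower and 4 higher depended mainly on which genes were tested. With no filter 0 rose and 0 fell in limma (over all 37 genes, 13 had an unadjusted p under 0.05 and the smallest adjusted p was 0.077), and the median over all 37 genes was 0. Without the genes at 0 in all 4 samples, a setting chosen after seeing the data, 0 rose and 0 fell again (over 31 genes, 14 unadjusted, smallest adjusted p = 0.0516), with a median of -0.018. The differences of the 18 genes were the same in both. These settings add genes with few reads, and the cause of the lost calls was not tested. At a minimum mean of 6, where 15 genes remain, 2 rose and the median was -0.47. With quantile normalization 2 rose, and Clec2d changed sign (0.032, adjusted p = 0.862). Leaving out each sample in turn gave 1 to 4 rises (1 without WT replicate 1, 2 without DKO replicate 1), 7 to 10 falls and a median of -0.38 to -0.33. In these fits Clec2d ranged from -0.10 to 0.086, Clec2h from -0.15 to 0.10 and Clec2i from -0.071 to 0.11, none of them called. Over the 18 genes and 11 alternatives, 149 values kept their direction and side of the threshold, 37 lost the call, 2 gained it and 7 changed sign. Clec12a, Clec3b, Clec4a1, Clec4a2, Clec4a3, Clec4d, Clec4e and Clec4n passed in every alternative except the pair with weaker or no filter. No paired analysis was possible because the labels carry no replicate numbers. With 2 samples a group and no counts, limits set by depth could not be computed.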
